A study of Homo sapiens with 5 samples.

Results

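The mRNAs of the DBHS family (Drosophila behaviour and human splicing proteins), SFPQ, NONO and PSPC1, were followed through the 5 libraries of an RNA immunoprecipitation and sequencing (RIP-seq) experiment on PSF, the protein that SFPQ encodes. The members were the rows of the gene table whose symbol was SFPQ, NONO or PSPC1, 3 of 25702 genes, and each was found once. The cells were LTAD, a prostate cancer line grown in phenol red-free medium with charcoal-treated serum, and they received either the DMSO vehicle or 5 µM of No.10-3, a small molecule with no other name in the labels. The libraries were 2 inputs (total RNA, 1 from vehicle and 1 from No.10-3 cells by the labels), 1 vehicle PSF-RIP and 2 No.10-3 PSF-RIP libraries, and no control immunoprecipitation was analysed here. The table's input columns do not say which treatment each had, so the inputs, called A and B, served jointly as 1 reference. The question, by the series title, is whether the small molecule alters binding of PSF to RNA. The labels do not say whether the libraries came from separate cultures, so p-values measure only the spread between these libraries, which may be technical.

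DBHS proteins are nuclear proteins with paired RNA recognition motifs and a coiled coil, and they act as homodimers and heterodimers. SFPQ (PSF, splicing factor proline and glutamine rich) and NONO (non-POU domain containing octamer binding) take part in transcription, splicing, nuclear retention of RNA and DNA repair, and PSF also acts on androgen receptor signalling in prostate cancer cells. PSPC1 (paraspeckle component 1) was named for paraspeckles, nuclear bodies that form on the long noncoding RNA NEAT1 and contain all 3 proteins. RIP-seq of PSF reads the RNAs that come down with the protein, and these can include the mRNA of PSF itself and of its partners.

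Inputs and PSF-RIP libraries held different kinds of RNA, and this bears on every ratio between them. Library totals ran from 1519362 to 4010376 counts. Nuclear protein-coding genes took 15.9% to 16.4% of counts in the inputs and 73.6% to 82.1% in PSF-RIP. The small noncoding RNAs RN7SK, RN7SL1, RN7SL2, RPPH1 and RMRP together took 51.7% to 55.0% of the input counts and 2.63% to 7.81% of the PSF-RIP counts. Levels are therefore given as normalised CPM, counts scaled per library with edgeR's TMM factors to CPM, which set the typical gene level between libraries. All 10 luminal prostate markers were detected, at a summed 3500 to 3835 CPM of protein-coding counts. The basal markers KRT5 and TP63, the stromal markers DCN and LUM, the neuroendocrine markers CHGA and INSM1, the leukocyte markers PTPRC and CD3E and the endothelial marker CDH5 had a count of 0 in all 5 libraries. Of the stromal list, COL1A1 was detected at 6 to 169 counts, and on the same scale the summed list reached 12.2 to 22.8 CPM in the inputs and 61.1 to 98.8 CPM in PSF-RIP. The basal list reached at most 1.79 CPM, the neuroendocrine list 20.4, the leukocyte list 10.1 and the endothelial list 19.7.

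SFPQ mRNA, the message of the immunoprecipitated protein, was highest in the vehicle PSF-RIP library. It had 133 counts in input A, 72 in input B, 708 in vehicle PSF-RIP, 213 in No.10-3 PSF-RIP library 1 and 719 in library 2. As normalised CPM these were 85.5 and 63.9 in the inputs, 169 with vehicle, and 78.7 and 104 with No.10-3. The vehicle value lay above the other 4, and No.10-3 library 1 fell between the inputs, so the PSF-RIP and input groups overlapped. Counting error alone gave 95% exact Poisson intervals of 156 to 181 with vehicle, 68.5 to 90.0 in No.10-3 library 1 and 96.2 to 112 in library 2. The No.10-3 libraries thus differed from each other by more than counting error. Such intervals cover counting error only, since reads without molecular identifiers are not independent molecules.

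NONO mRNA, which encodes the main dimer partner of SFPQ, had 242 counts in input A, 156 in input B, 875 in vehicle PSF-RIP, 379 in No.10-3 library 1 and 1109 in library 2. Its normalised CPM was 156 and 138 in the inputs, 208 with vehicle, and 140 and 160 with No.10-3. Only the vehicle PSF-RIP library stood apart, while No.10-3 library 1 lay between the inputs and library 2 just above input A. Of the members, NONO varied least over the 5 libraries.

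PSPC1 mRNA was the scarcest, with 18 counts in input A, 11 in input B, 125 in vehicle PSF-RIP, 48 in No.10-3 library 1 and 119 in library 2. Its normalised CPM was 11.6 and 9.77 in the inputs, 29.8 with vehicle, and 17.7 and 17.2 with No.10-3. All 3 PSF-RIP values lay above both inputs, as they did for 30.1% of the 13321 genes tested. The low input counts leave wide Poisson intervals, 6.86 to 18.3 normalised CPM in input A and 4.88 to 17.5 in input B. The interval of input A reached past both No.10-3 values. In the RefSeq gene table of a later assembly, PSPC1 overlaps MPHOSPH8, a protein-coding gene with 10 to 136 counts here, and although the labels name a stranded library kit, no source used here says whether counting used strand, so reads of this pair are uncertain. RefSeq also lists 5 pseudogenes of the members, none with a row in the count table, and how reads shared with such copies were treated is likewise not given.

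**Figure D1:**
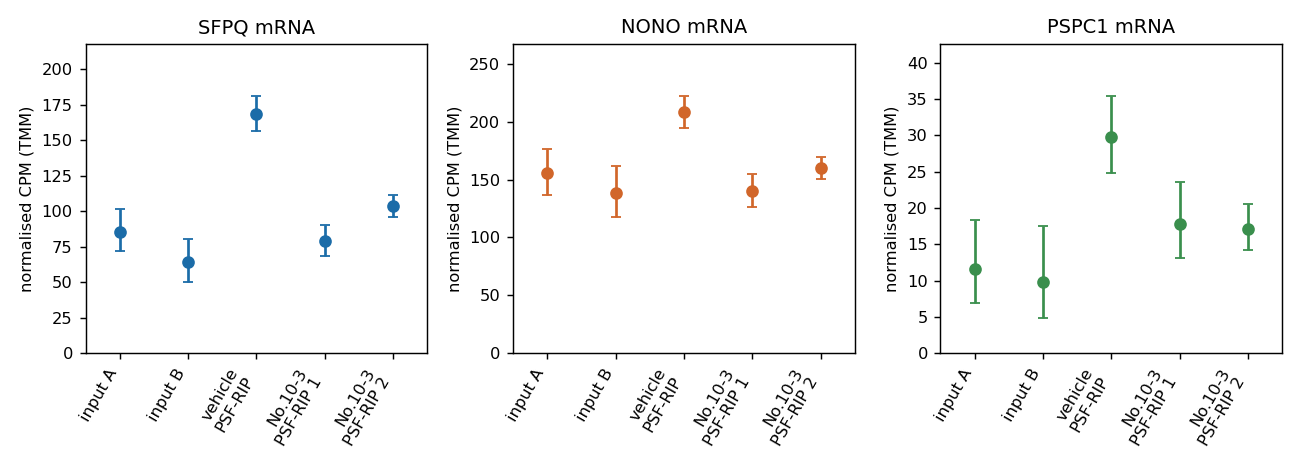
Normalised CPM (TMM-scaled CPM, vertical axis from 0, a scale of its own in each panel) of SFPQ, NONO and PSPC1 mRNA in each of the 5 libraries; bars are 95% exact Poisson intervals of the count. The vehicle PSF-RIP library is the highest for each gene (169, 208 and 29.8), and PSPC1 alone has all PSF-RIP points above both input points.

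Per length, the order of the members was the same in every library, with NONO above SFPQ and SFPQ far above PSPC1. As FPKM, counts scaled to gene length and library total, NONO stood at 17.2 ± 2.14 in the inputs (SD, n = 2), 125 with vehicle and 89.9 ± 17.5 with No.10-3 (SD, n = 2). SFPQ stood at 9.20 ± 2.26 in the inputs, 106 with vehicle and 57.5 ± 16.9 with No.10-3. The values of NONO and SFPQ did not overlap within the inputs or within the No.10-3 pair. PSPC1 stood at 1.68 ± 0.272 in the inputs, 23.9 with vehicle and 14.0 ± 1.10 with No.10-3. Among the tested protein-coding genes, SFPQ exceeded 85.9% to 96.8% in FPKM within a library and NONO 93.6% to 97.6%. PSPC1 exceeded 44.4% and 47.3% in the inputs and 57.5% to 74.5% in PSF-RIP.

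The balance within the family was read from 3 ratios, which need no scaling between libraries. There were 1.82 and 2.17 counts of NONO per count of SFPQ in the inputs, 1.24 with vehicle PSF-RIP, and 1.78 and 1.54 with No.10-3. NONO was thus lower relative to SFPQ in PSF-RIP than in input, although No.10-3 library 1 came close to input A. On the log2 scale the mean difference was -0.40. PSPC1 had 0.0744 and 0.0705 counts per count of NONO in the inputs, 0.143 with vehicle PSF-RIP, and 0.127 and 0.107 with No.10-3. This ratio had the widest gap between groups, with a mean log2 difference of 0.78. PSPC1 per count of SFPQ was 0.135 and 0.153 in the inputs, 0.177 with vehicle, and 0.225 and 0.166 with No.10-3, a mean log2 difference of 0.38. None of the 3 ratios, which rest on the same 3 genes, overlapped between 3 PSF-RIP and 2 input libraries. For TMM-scaled levels of single tested genes such separation was common, with 30.1% wholly above input in PSF-RIP and 25.1% wholly below. The share of ratios between other gene pairs that separate was not computed. Each ratio gave p = 0.2 in a two-sided exact permutation test, the smallest p this design allows, so none can pass 0.05. As a share of the family's counts, PSPC1 took 4.58% and 4.60% in the inputs (95% Wilson intervals 2.92 to 7.12% and 2.59 to 8.05%), 7.32% with vehicle (6.18 to 8.65%), and 7.50% and 6.11% with No.10-3 (5.70 to 9.80% and 5.13 to 7.26%). Each PSF-RIP interval overlapped both input intervals.

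**Figure D2:**
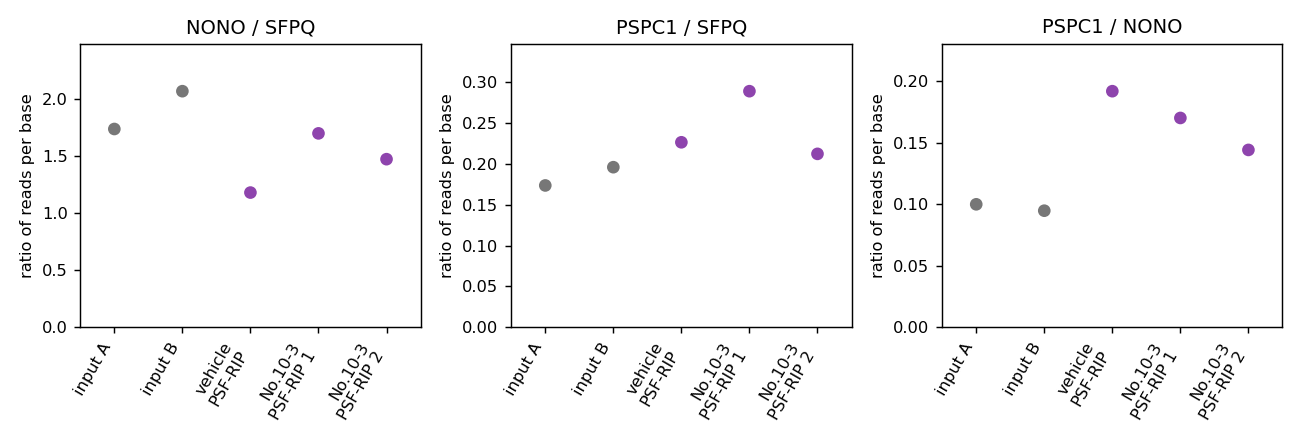
Ratio of reads per base of gene between 2 members within each library (vertical axis from 0; grey, inputs; purple, PSF-RIP), 1 panel per pair. NONO over SFPQ runs from 1.18 with vehicle PSF-RIP to 2.07 in input B, and PSPC1 over NONO from 0.0947 in input B to 0.192 with vehicle PSF-RIP.

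PSF-RIP over input, with the inputs as 1 reference, ordered the members as PSPC1, SFPQ and NONO. Scaled to library totals, the counts of SFPQ in vehicle PSF-RIP were 11.2-fold those of the summed inputs, those of NONO 7.15-fold and those of PSPC1 14.0-fold. The median protein-coding gene was 5.34-fold higher on this scale, which carries the difference in RNA kinds. In No.10-3 libraries 1 and 2 SFPQ was 4.85-fold and 7.39-fold, NONO 4.45-fold and 5.87-fold and PSPC1 7.73-fold and 8.64-fold, against 4.93-fold and 6.08-fold for the median gene. With TMM scaling the same ratios were 2.2 for SFPQ (95% exact interval of the counts 1.88 to 2.59), 1.40 for NONO (1.25 to 1.58) and 2.75 for PSPC1 (1.83 to 4.28), against 1.05 for the median gene. In No.10-3 library 1 they were 1.03 (0.846 to 1.25), 0.943 (0.817 to 1.09) and 1.64 (1.01 to 2.70). Library 2 gave 1.36 (1.16 to 1.59), 1.08 (0.960 to 1.21) and 1.59 (1.05 to 2.47). The median gene stood at 1.05 in library 1 and 1.12 in library 2. With vehicle, the counting interval of each member lay above the median gene. With No.10-3 that held for SFPQ in library 2 alone, and the intervals of PSPC1 included the median gene in both libraries.

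**Figure D3:**
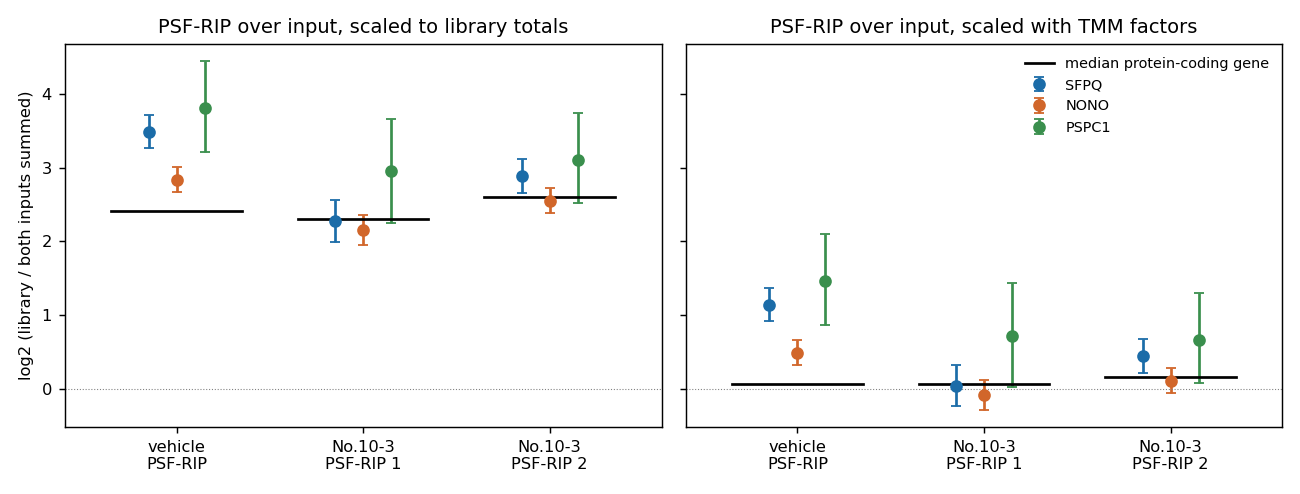
Log2 ratio of each PSF-RIP library to both inputs summed for SFPQ, NONO and PSPC1, scaled to library totals (left) or with TMM factors (right); bars are 95% exact intervals of the counts, and black lines are the median tested protein-coding gene. On the left every member and the median gene lie above 2; on the right the median gene lies near 0, and PSPC1 is the highest member in each library.

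In the model over all genes, none of the 3 members passed the test of PSF-RIP over input, averaged over vehicle and No.10-3. The log2 difference of PSPC1 was 1.08 (SE 0.45, 95% interval 0.18 to 1.99, adjusted p = 0.0693 by edgeR's quasi-likelihood test with Benjamini-Hochberg adjustment), that of SFPQ was 0.73 (SE 0.37, -0.03 to 1.48, adjusted p = 0.145) and that of NONO 0.26 (SE 0.37, -0.49 to 1.02, adjusted p = 0.631). Of all 13321 tested genes 25.6% were called at an adjusted p of 0.05, 12.0% higher and 13.6% lower in PSF-RIP, with a median log2 difference of 0.05. PSPC1 exceeded 82.3% of tested genes, SFPQ 72.1% and NONO 57.1%. The log2 difference of SFPQ moved when single libraries were left out, and that of PSPC1 when the vehicle library or an input was left out. Without No.10-3 library 1, SFPQ was at 0.82 and PSPC1 at 1.07, and without No.10-3 library 2 they were at 0.60 and 1.08. Such fits leave 1 library in each PSF-RIP group. Their spread comes from the input pair alone, so no member is called from them. Without the vehicle library SFPQ was at 0.28 (adjusted p = 0.674 by edgeR) and PSPC1 at 0.69 (0.338). That fit called 1405 genes, against 3413 with all libraries. Without input A SFPQ and PSPC1 were at 0.96 and 1.22, and without input B at 0.54 and 0.98. Under library totals all 3 members passed, at log2 differences of 3.08 for SFPQ, 2.62 for NONO and 3.42 for PSPC1, but so did most genes, with a median of 2.38 and 99.5% of calls higher, against 46.8% under TMM.

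With vehicle, PSPC1 was the 1 member of 3 that passed over input, while 20.5% of tested genes were called, 10.1% higher and 10.4% lower. Its log2 difference was 1.47 (SE 0.53, 95% interval 0.39 to 2.54, adjusted p = 0.0449 by edgeR), and that of SFPQ was 1.17 (SE 0.46, 0.24 to 2.1, adjusted p = 0.0653). NONO was at 0.50 (SE 0.47, -0.46 to 1.46, adjusted p = 0.468). The PSPC1 call rests on 1 vehicle library, assumed to vary like the other groups. It was lost with DESeq2 (adjusted p = 0.111) and, by edgeR, with the length trend removed (0.0514). The call held under the other scalings and filters, from 3.42e-06 with library totals to 0.0498 with upper-quartile factors by edgeR. Without input A the log2 difference of PSPC1 was 1.61 and without input B 1.36. When an input is left out, the spread comes from the No.10-3 pair alone, so calls of members are not read from such fits. The log2 difference of SFPQ was 1.18 without No.10-3 library 1 and 1.15 without library 2. In these fits each PSF-RIP group has 1 library and the spread comes from the input pair alone, so no member is called from them. Without input A SFPQ was at 1.40 and without input B at 0.98. With No.10-3, 0 of 3 members passed over input by edgeR, while 11.5% of tested genes were called, 5.03% higher and 6.51% lower. No member had an unadjusted p under 0.05 there by edgeR. The log2 differences were 0.70 for PSPC1 (SE 0.47, 95% interval -0.26 to 1.65), 0.29 for SFPQ (SE 0.39, -0.51 to 1.08) and 0.028 for NONO (SE 0.40, -0.77 to 0.83), and the sign of NONO turned under 7 of 14 alternatives, among them without input B (-0.049) and without No.10-3 library 2 (-0.084). SFPQ moved there from 0.056 without No.10-3 library 2 and 0.098 without input B to 0.46 without No.10-3 library 1 and 0.52 without input A. Passing with vehicle and not with No.10-3 is no difference between them, and the test of that difference is the comparison of the PSF-RIP libraries, since both share the pooled inputs.

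Between treatments, each member mRNA stood lower in both No.10-3 PSF-RIP libraries than in the vehicle library, as did 32.4% of tested genes, and none of the 3 passed the test. SFPQ was at 0.467 of the vehicle level in library 1 (95% exact interval of the counts 0.399 to 0.545) and at 0.615 in library 2 (0.554 to 0.683). NONO was at 0.672 (0.594 to 0.759) and 0.768 (0.702 to 0.840), and PSPC1 at 0.596 (0.418 to 0.837) and 0.577 (0.445 to 0.747). SFPQ had the lowest ratio of the members in library 1 and PSPC1 in library 2, and only for PSPC1 did the No.10-3 libraries differ by less than counting error. In the model over all genes the log2 difference of SFPQ was -0.88 (SE 0.46, 95% interval -1.81 to 0.04, adjusted p = 0.788 by edgeR), that of PSPC1 -0.77 (SE 0.49, -1.76 to 0.22, adjusted p = 0.849) and that of NONO -0.47 (SE 0.47, -1.43 to 0.48, adjusted p = 0.902). Each interval includes 0, so no difference remains possible for every member, as does a fall as deep as the lower bound.

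Both No.10-3 values are set against the same vehicle library, and 33.3% of tested genes lay above it in both, so 3 of 3 members below is read against shares of this size. A lower log2 difference than that of SFPQ was found for 6.90% of tested genes, than that of PSPC1 for 9.23%, and 80.0% had a higher one than NONO. edgeR called 0% of genes in this comparison, with 847 at an unadjusted p under 0.05, and DESeq2 called 0 with 273. Leaving out a No.10-3 library sets 1 PSF-RIP library against 1. The spread then comes from the input pair alone, so numbers of genes called in these fits are not read as differences between treatments. Without library 1 the log2 differences were -0.72 for SFPQ, -0.40 for NONO and -0.81 for PSPC1. Without library 2 they were -1.10, -0.57 and -0.74. Because the inputs were pooled, a change in recovery by PSF and a change in the amount of the mRNA cannot be told apart, nor can fewer cells holding the RNA and less RNA per cell. In the inputs, where 1 library of each treatment is present, A over B was 1.34 for SFPQ (95% exact interval of the counts 0.997 to 1.81), 1.12 for NONO (0.915 to 1.38) and 1.19 for PSPC1 (0.530 to 2.78), so no difference between the inputs was detectable at this depth.

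**Figure D4:**
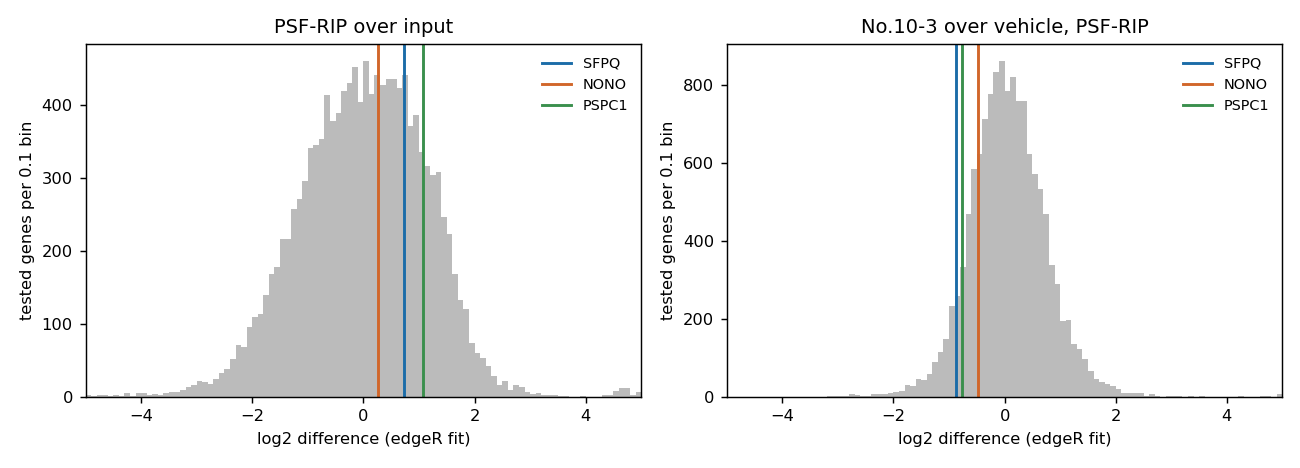
Histograms of the log2 difference of all 13321 tested genes (horizontal axis; vertical axis, genes per 0.1 bin) for PSF-RIP over input (left) and No.10-3 over vehicle in PSF-RIP (right), with lines at SFPQ, NONO and PSPC1. The members lie at 0.73, 0.26 and 1.08 on the left, within the bulk of genes, and at -0.88, -0.47 and -0.77 on the right.

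Genes whose levels ran most like each member were found by the root mean square distance between centred log2 profiles over the 5 libraries, among 6674 other tested genes that averaged 20 CPM or more. Nearest to SFPQ were ZNF550 (distance 0.07 log2 units), a zinc finger gene, CDK5RAP2 (0.08), which encodes a centrosomal protein, and SF3B1 (0.10), a core subunit of the U2 snRNP. SF3B1 stood at 130 and 97.7 normalised CPM in the inputs, 239 with vehicle PSF-RIP, and 133 and 174 with No.10-3. As for SFPQ, the vehicle library was the highest and No.10-3 library 1 close to input A. Among the 3 nearest to NONO was VPS45 (0.08), of vesicle traffic. PSPC1 had PMM2 (0.04), QSOX2 (0.07) and DDX56 (0.08) nearest, and PMM2, a phosphomannomutase, stood at 19.9 and 16.0 normalised CPM in the inputs, 49.3 with vehicle, and 31.0 and 28.1 with No.10-3. The members were not each other's nearest genes. Among the genes ordered by distance to SFPQ, PSPC1 came at place 128 and NONO at place 232. From NONO, SFPQ came at place 608 and PSPC1 at 1734, and from PSPC1, SFPQ came at place 390 and NONO at 1705. These are descriptions over 5 libraries that share groups, and by correlation in place of distance 1 of the 3 genes for SFPQ was again among the nearest and 0 of 3 for NONO and for PSPC1.

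NEAT1, the RNA scaffold of paraspeckles, stood lower in PSF-RIP than in input, while PSPC1 stood higher and SFPQ overlapped with input. It had 1589 and 1327 normalised CPM in the inputs, 512 with vehicle PSF-RIP, and 548 and 950 with No.10-3. All PSF-RIP values lay below both inputs, as for 25.1% of tested genes. NEAT1 passed the test of PSF-RIP over input, averaged over vehicle and No.10-3, with a log2 difference of -1.24 (SE 0.42, adjusted p = 0.0283 by edgeR). It did not pass with vehicle alone (-1.51, SE 0.60) or with No.10-3 alone (-0.96, SE 0.46). NEAT1 was not followed through the alternative fits. The negative direction depends on the scaling, since on library totals NEAT1 was 1.76-fold above the summed inputs with vehicle, against 11.2-fold for SFPQ. The table gives NEAT1 a length of 3735 bases, and counts per gene do not tell its transcripts apart. Against vehicle PSF-RIP, NEAT1 was at 1.07 in No.10-3 library 1 and at 1.86 in library 2, with a log2 difference of 0.55 (SE 0.57, adjusted p = 0.904).

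mRNAs of other paraspeckle proteins spread to both sides of input. Of 34 listed genes, all tested, 6 were called higher and 4 lower in PSF-RIP, and 24 did not pass, close to the 12.0% higher and 13.6% lower of all tested genes, with a median log2 difference of 0.24 against 0.05 over all genes. SMARCA4, a chromatin remodelling ATPase, stood at 27.7 and 27.5 normalised CPM in the inputs, 112 with vehicle, and 98.3 and 74.4 with No.10-3, a log2 difference of 1.83 (SE 0.39, adjusted p = 8.87e-04 by edgeR). AHDC1 was also called higher, at 1.86 (SE 0.43). At the other end were RBM7, of the nuclear exosome targeting complex, at -2.40 (SE 0.60), with 2 to 29 counts per library, and ZNF24 at -1.63 (SE 0.38). PSPC1 lay below 4 of the 34 genes and SFPQ below 10, while 17 lay below NONO. The members therefore fell inside the range of this list. Between treatments 0 of the 34 passed by edgeR, 23 were below 0 and 11 above, and the median was -0.34 against 0.04 over all genes. In that comparison 33 of the 34 had a higher log2 difference than SFPQ, as did 93.1% of all tested genes.

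Of 10 mRNAs of partners of PSF or NONO outside the family, 1 was called higher in PSF-RIP over input, 0 were called lower and 9 did not pass, beside 12.0% higher and 13.6% lower among all tested genes. The median log2 difference was 0.63, against 0.05 over all genes. U2AF2, the large subunit of the U2 auxiliary splicing factor, was the 1 called, at 34.7 and 38.2 normalised CPM in the inputs, 78.3 with vehicle, and 68.4 and 73.0 with No.10-3 (log2 difference 1.03, SE 0.37, adjusted p = 0.0375 by edgeR). DDX5, an RNA helicase, was at 0.999 (SE 0.41, adjusted p = 0.0671). The lowest were XRN2, a nuclear exonuclease, at 0.25, and TOP1, DNA topoisomerase I, at -0.09. Between treatments 0 of 10 passed by edgeR, and the median was 0.06. All 10 had a higher log2 difference there than SFPQ and than PSPC1, as did 93.1% and 90.8% of all tested genes.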

How the data were processed

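The authors deposited 1 table with a whole-number read count per Entrez gene and library and a gene length. Per the submitters' processing notes the tools were TopHat2 2.1.0, Bowtie2 2.2.6 and Bowtie and the build hg19. No source used here gives the counting tool, annotation, strand setting or handling of multi-mapped reads. Per the labels' protocols, libraries were made with a stranded kit. The counts were taken as raw, and lengths as the authors deposited them, in bases. Columns named for the compound without input were taken as No.10-3 PSF-RIP by elimination. Of 25702 genes, 1962 have no symbol and were kept. Biotypes came from RefSeq (GRCh38.p14), matched for 23696 genes by Entrez ID.

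Genes averaging 1 CPM or more over the 5 libraries were tested with edgeR 4.0.16 (R 4.3.3), TMM factors, 3 groups, glmQLFit and glmQLFTest, Benjamini-Hochberg adjustment over 13321 genes and a threshold of 0.05. The model has 2 residual degrees of freedom per gene, from the input pair, which includes any effect of the compound on input, and the No.10-3 pair. The SE is the log2 difference over the root of F, and intervals use the model's total degrees of freedom. FPKM was computed from counts, lengths and library totals. Profiles used log2 CPM with a prior count of 2. Alternatives used DESeq2 1.42.0, limma 3.58.1 on log2(FPKM + 0.1), other scalings and filters, and leaving out each library. The edgeR script was tested on simulated data with known fold changes. All simulated libraries shared a mean profile, so the difference in RNA kinds between input and PSF-RIP was not simulated. The members, lists and tests were chosen with earlier results of these data known. Named genes were the members, NEAT1, rows whose symbol begins with a member's, the 3 nearest by profile, and the 2 highest and 2 lowest of each list in PSF-RIP over input. Of the genes nearest to NONO, 2 are not reported here.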

Additional observations from a re-analysis of the deposited data

How the results depend on the processing

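Between treatments, the log2 differences of SFPQ, NONO and PSPC1 stayed below 0 and not called under all 14 alternatives each (adjusted p by edgeR, DESeq2 or limma 0.247 to 0.99997 for SFPQ, 0.552 to 0.99997 for NONO and 0.263 to 0.99997 for PSPC1), with 0 to 870 genes called when 1 library was left out, 9 without a filter and 2 with limma on FPKM. The highest number of genes and the lowest adjusted p of each member came from leaving out No.10-3 library 1. That fit has 1 library in each PSF-RIP group and its spread from the input pair alone. These values are therefore not read as differences between treatments. The ranges of genes called below, with 1 library left out, share this limit, since their ends come from fits whose spread rests on 1 pair. The direction of the 3 member ratios held under 6 of 6 alternatives each. No paired analysis was possible because the input columns name no treatment, the number in 1 of their names matches no input label, and there is 1 vehicle PSF-RIP library.

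For PSF-RIP over input, library totals gave 11274 genes called and log2 differences of 3.08 (SFPQ), 2.62 (NONO) and 3.42 (PSPC1), limma on FPKM gave 11035 genes and 3.08, 2.61 and 3.37, and DESeq2 gave 2252 genes. Protein-coding totals without TMM, an alternative chosen after seeing the data, gave 1.18 for PSPC1, called. On that scale the median over the genes tested was 0.18, and 58.7% of calls were higher. Leaving out 1 library gave 623 to 5566 genes, 0.28 to 0.96 for SFPQ and 0.69 to 1.22 for PSPC1.

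With vehicle over input, library totals gave 9770 genes, 3.52 (SFPQ) and 2.85 (NONO), limma on FPKM 9337 genes, 3.53 and 2.85, and DESeq2 1664 genes and 1.47 for PSPC1, not called. Protein-coding totals without TMM, chosen after seeing the data, gave 1.29 for SFPQ, called. On that scale the median over the genes tested was 0.18, and 60.1% of calls were higher. Removing the length trend gave 1.31 for PSPC1, not called. Leaving out 1 library gave 332 to 4944 genes, 0.98 to 1.40 for SFPQ and 1.36 to 1.61 for PSPC1.

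With No.10-3 over input, library totals gave 11577 genes, 2.64 (SFPQ), 2.38 (NONO) and 3.04 (PSPC1), limma on FPKM 11103 genes, 2.62, 2.37 and 2.99, and DESeq2 883 genes. NONO turned negative with DESeq2 (-0.034), upper-quartile factors (-0.027), TMM from protein-coding genes (-0.021), a 5 CPM filter (-0.043) and the length trend removed (-0.14), and lay between -0.084 and 0.12 when 1 library was left out, with 234 to 4074 genes called. The cause of these changes was not tested. The 11 to 18 PSPC1 counts per input limit every ratio of PSPC1 to input.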
